A study of Hordeum vulgare with 12 samples.

Results

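The 24-nt root small RNAs without a perfect miRBase match were chosen by length, as all rows of 24 nt in the deposited root table of sequences outside miRBase. They number 196 of the 1796 sequences in that table and of 8271 distinct sequences in the 4 tables of the series. Barley (Hordeum vulgare) line Rolap was grown in pots of soil holding 8 mg P per kg, either without further phosphate (low-Pi) or with KH2PO4 supplying another 60 mg P per kg (control), and harvested on day 23. The root comparison has 3 low-Pi and 3 control libraries, each from 1 pot of 3 plants, so a library averages 3 plants and the spread between libraries is a spread between pots. Kept reads numbered 14999744 to 17614581 in the low-Pi libraries and 7470998 to 11434616 in the control libraries, so every low-Pi library was deeper than every control library. Values are reads per 1000000 kept reads (RPM), and intervals cover counting error only. The table held only sequences that had already passed a test between these same 6 libraries, so directions and ratios are given as descriptions, with no test.

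In plants the 24-nt length is best known from small interfering RNAs that guide DNA methylation and repress transposons. In Arabidopsis these are cut from double-stranded RNA by DICER-LIKE 3 and bound by ARGONAUTE 4, which prefers a 5′ adenine. Fragments of ribosomal RNA (rRNA), small nucleolar RNA (snoRNA) and other abundant RNAs can have the same length without passing through that pathway. The study's annotation placed each root sequence in classes of barley cDNA, or in none. By those classes, 91 of the 196 sequences matched rRNA cDNA, 10 matched tRNA, snRNA, snoRNA or signal recognition particle RNA (SRP-RNA), 14 matched other cDNA, of which 13 were protein-coding only, and 81 had no class. The rRNA class held 46.4% of the 24-nt sequences and 43.6% of the 1600 sequences of other lengths, and the share without a class was 41.3% at 24 nt and 40.3% at other lengths. Most rRNA sequences were also placed among protein-coding or non-translating cDNA, so the class names a match and not an origin. Root grown in soil can hold RNA of other organisms, and sequences without a barley class are therefore named by number only, from sR1 to sR196 in falling order of mean RPM.

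Members sR1, sR3, sR4, sR5 and sR7 are shown first because they carry much of the summed reads, with the first and last base in capitals.
sR1: TgccggccgggggacggaccgggA
sR3: CcgatgattcatgataactcgacG
sR4: TggcccagtggttgtctgacagaC
sR5: TtggcggattgctcgagctgctcA
sR7: CcatgggctaagtcggtccggccG
All but sR4 were in the rRNA class, and sR4 was in the snoRNA class. The other abundant pair, sR2 and sR6, came from 1 shared stretch of rRNA class and is shown with its overlapping neighbours further on.

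Of the 196 members, 171 were higher and 25 lower under low-Pi. That is 87.2% higher, beside 86.7% higher and 13.3% lower over all lengths of the same table, and between 83.8% and 88.6% higher at any single length. The median log2 ratio of low-Pi over control was 1.73, or 3.31-fold, beside 1.74 over all lengths. The groups did not overlap in 195 of the 196 members, beside 98.2% of all sequences in the table, which selection for a difference fixes. The exception was sR29, of rRNA class, at 38.1, 40.6 and 32.8 RPM in low-Pi and 29.4, 30.2 and 36.7 RPM in control roots. The share, direction and size at 24 nt thus lay close to those of the table as a whole. A higher RPM in bulk root cannot tell more RNA per cell from more cells that hold it.

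In RPM, the unselected root sequences with a miRBase match moved the other way. Of the 245 that averaged 1 RPM or more, 18.4% were higher and 81.6% lower under low-Pi, 49.4% had groups that did not overlap, and the median log2 ratio was -0.70. Sequences matched to miRBase took 0.940 to 1.22% of kept reads in low-Pi and 1.61 to 1.91% in control libraries. Scaled to the miRBase sequences by trimmed mean of M values (TMM), the median log2 ratio of the 24-nt members was 2.33, a shift of 0.60. The counts were still 171 higher and 25 lower, since no lower member lay closer to 0 than -1.75. TMM factors centre the miRBase sequences by design, and the median log2 ratio of those sequences was then -0.10. With no scaling it was 0.15, but raw counts carry the greater depth of the low-Pi libraries. Neither value can decide how far the fall of the miRBase sequences in RPM depends on the scale. The members left a gap in the ratios that was not centred on 0. The lowest log2 ratio among the higher members was 0.21 and the highest among the lower members was -1.75, with nothing between.

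**Figure D1:**
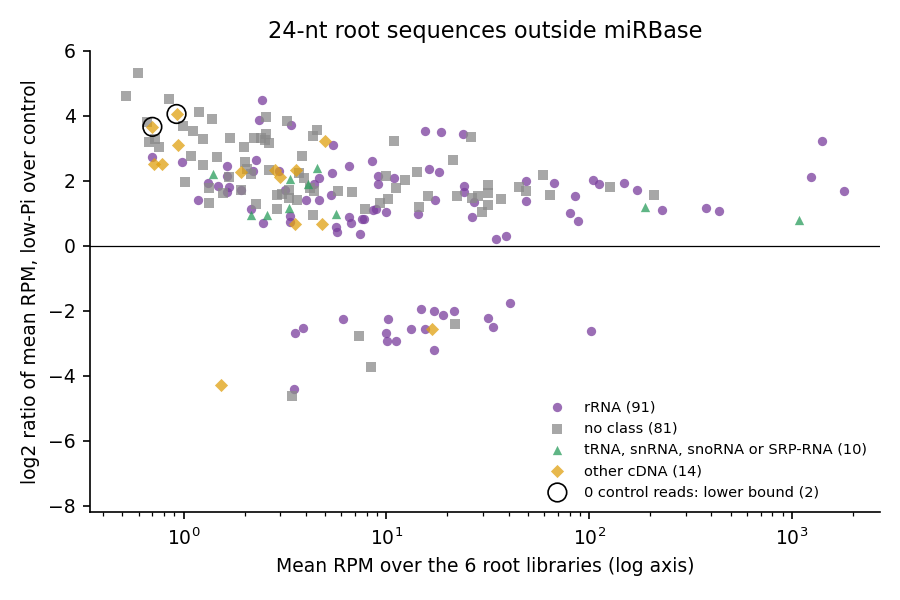
The log2 ratio of mean RPM (low-Pi over control) is plotted against mean RPM over the 6 root libraries on a log axis, 1 point for each of the 196 members, with colour and shape for the cDNA class and a ring around the 2 members with 0 control reads. The 25 lower members sit below -1.7, and the 171 higher members reach from 0.21 to 5.31.

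The ratios were wide. At least 2-fold differences were seen in 149 of the higher and in all 25 of the lower members, 79 were higher by at least 4-fold and 37 by at least 8-fold. Mean levels ran from 0.522 to 1800 RPM with a median of 5.17 RPM, and 15 members averaged at least 100 RPM. The 15 members below 1 RPM were all higher under low-Pi, with a median log2 ratio of 3.29, and 17 members had 0 reads in some library. Ratios of these rare members rest on few control reads, and 87.2% of all members were higher. Rare members passed the selection with low-Pi libraries deeper than control libraries. Their direction and large ratios therefore cannot be told apart from the selection.

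By cDNA class, the share of lower members differed. In the rRNA class 72 of 91 were higher and 19 lower, with a median log2 ratio of 1.40. Among members without a class 77 of 81 were higher, with a median of 2.03. All 10 members of the tRNA, snRNA, snoRNA and SRP-RNA classes were higher, with a median of 1.17, and 12 of 14 members of other cDNA were higher, with a median of 2.32. The same ordering between rRNA and no class was seen at other lengths, where 77.4% of rRNA and 94.1% of unclassed sequences were higher. Members overlap and share sources, so these shares are descriptions.

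Together the 24-nt members took 1.40, 1.52 and 1.40% of kept reads in the low-Pi libraries and 0.504, 0.502 and 0.535% in the control libraries. The groups had means of 1.44% ± 0.0704 and 0.514% ± 0.0186 (SD, n = 3 each), a ratio of 2.80. The members were admitted for a difference between these same libraries, so the distance between the groups is a description. The widest 95% Wilson interval of a library's share spanned 0.0119 percentage points. The 171 higher members accounted for 1.43% ± 0.0722 of low-Pi and 0.439% ± 0.00977 of control reads. The 25 lower members took 0.0140% ± 0.00283 of low-Pi and 0.0748% ± 0.00886 of control reads, 5.34-fold less under low-Pi. Within the 24-nt reads, lower members thus made up 0.972% in low-Pi and 14.6% in control roots.

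Among the lengths of the table, 24 nt held the smallest share of reads. Its neighbours held 2.01% ± 0.0437 in low-Pi and 0.876% ± 0.0382 in control roots at 23 nt, and 7.97% ± 0.611 and 2.09% ± 0.388 at 25 nt. Most of the 25-nt share came from 1 sequence of rRNA class, which averaged 65591 RPM in low-Pi and 15848 RPM in control roots. Without it, the 25-nt share would not exceed that of 24 nt. At 18 nt the shares were 6.40% ± 0.989 in low-Pi and 2.00% ± 0.158 in control roots. Over all lengths the table took 30.5% ± 2.21 of low-Pi and 9.30% ± 0.778 of control reads, and 24 nt made up 4.73% of that in low-Pi and 5.52% in control roots.

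**Figure D2:**
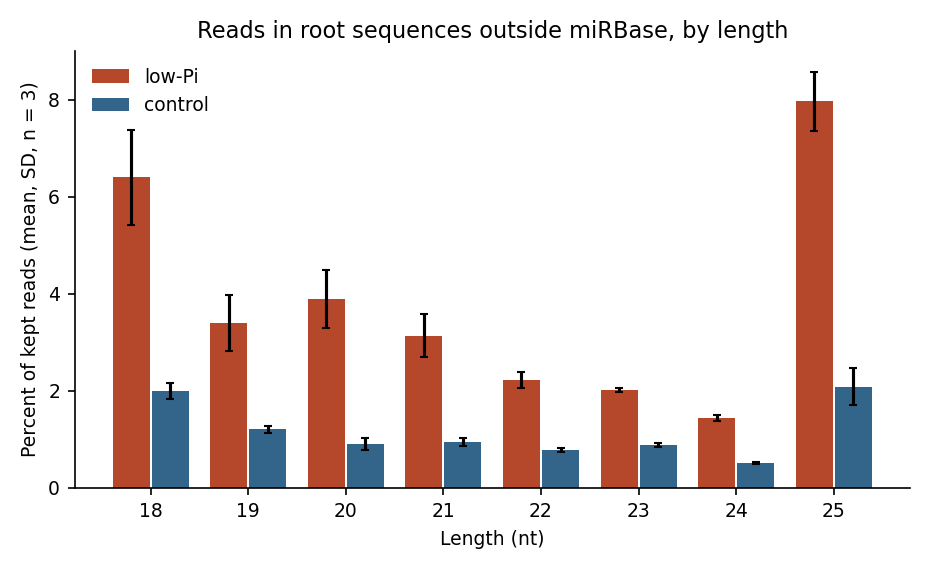
Bars give the percent of kept reads in the root sequences outside miRBase at each length from 18 to 25 nt, as the mean of 3 low-Pi and of 3 control libraries with SD. The 24-nt bars, at 1.44% in low-Pi and 0.514% in control roots, are the lowest of each group.

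A few members carried most of these reads. The 4 most abundant made up 60.2% of the 24-nt reads in low-Pi and 46.1% in control roots, and the first 8 made up 72.2% and 60.9%. The remaining 188 took 0.400% ± 0.0384 of low-Pi and 0.201% ± 0.00827 of control reads, a ratio of 1.99 beside 3.32 for the first 8. The first 8 were all higher, while the remaining 188 include all 25 lower members. The 2 ratios therefore do not compare abundant with rarer members of the same direction.

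The most abundant member, sR1 of rRNA class, stood at 2466, 2809 and 2985 RPM in low-Pi and 643, 1054 and 844 RPM in control roots. It was 3.25-fold higher under low-Pi, and the groups did not overlap. sR2, also of rRNA class, stood at 2459, 2807 and 2325 RPM in low-Pi and 263, 269 and 277 RPM in control roots. With 9.39-fold it had the largest ratio among the 8 most abundant members and control libraries that differed little from each other. sR3, of rRNA class, had 2521, 2206 and 1320 RPM in low-Pi and 540, 360 and 497 RPM in control roots. It was 4.33-fold higher, with 1 low-Pi library well below the other two.

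sR4 was in the snoRNA class; snoRNAs guide chemical modification of rRNA in the nucleolus. It had 1223, 1324 and 1568 RPM in low-Pi and 812, 668 and 881 RPM in control roots, a ratio of 1.74, the smallest of the first 8. A second member of snoRNA class, sR9, was at 238, 276 and 273 RPM in low-Pi and 110, 105 and 127 RPM in control roots. The last 15 bases of sR4 and sR9 were the same, and both stayed apart between groups. sR5, sR6 and sR7, all of rRNA class, were 2.11, 2.25 and 2.16-fold higher. sR8, without a class, had 297, 352 and 282 RPM in low-Pi and 140, 99.7 and 76.6 RPM in control roots, 2.94-fold higher.

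**Figure D3:**
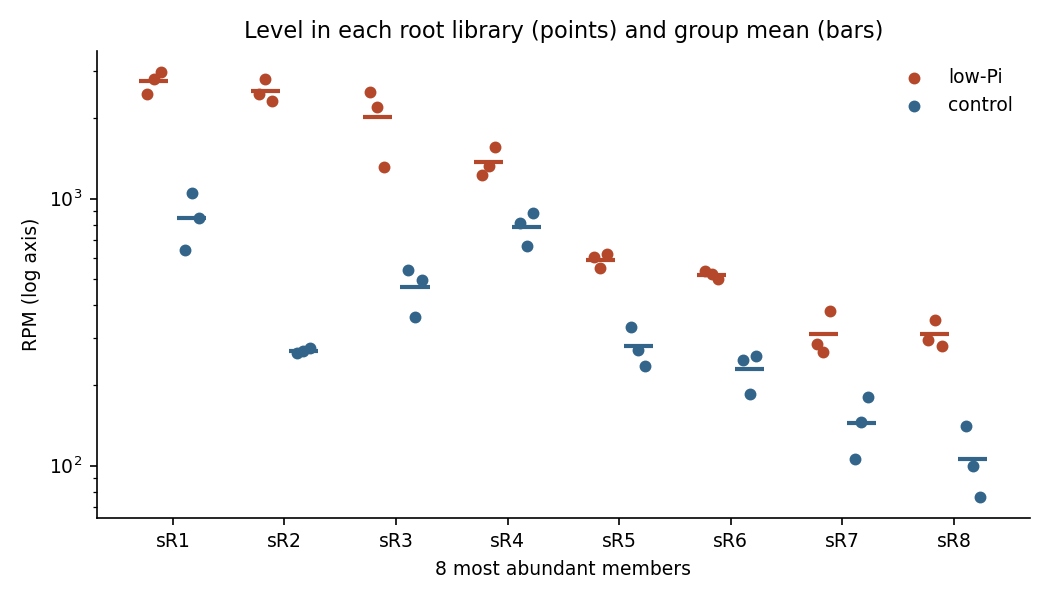
RPM on a log axis is shown for the 8 most abundant members, with 1 point per library, the 3 low-Pi libraries left of the 3 control libraries, and a bar at each group mean. In all 8 the low-Pi points lie above the control points, and the gap is widest for sR2 (2531 and 270 RPM).

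Other structural RNAs were rarer. SRP-RNA, the RNA core of the particle that directs ribosomes to the endoplasmic reticulum, had 3 members, all higher, and sR103 led them with 7.62 ± 1.48 RPM in low-Pi and 1.44 ± 0.0697 RPM in control roots (SD, n = 3 each). Spliceosomal snRNA had 2 members of that class alone, and sR110 averaged 6.45 ± 1.06 RPM in low-Pi and 1.74 ± 0.698 RPM in control roots. tRNA, the amino acid carrier, had 1 member of that class alone, sR124, at 6.60, 4.54 and 5.04 RPM in low-Pi and 1.22, 1.24 and 1.47 RPM in control roots. None of these members overlapped between groups.

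A small set of the lower members overlapped closely. Of the 25, 19 were of rRNA class, 4 had no class and 2 matched protein-coding cDNA. The 4 members below, of rRNA class, overlapped in 19 bases, shown in capitals, and all were lower.
sR46: actctCGGCAACGGATATCTCGGC
sR34: ctctCGGCAACGGATATCTCGGCt
sR63: tctCGGCAACGGATATCTCGGCtc
sR15: CGGCAACGGATATCTCGGCtctcg
sR15, the most abundant lower member, had 26.9, 21.0 and 37.3 RPM in low-Pi and 166, 132 and 227 RPM in control roots, 6.15-fold less. sR34 had 10.5, 9.88 and 13.2 RPM in low-Pi and 55.2, 51.3 and 49.7 RPM in control roots, 4.65-fold less. The log2 ratios in this stretch ran from -2.62 to -1.99, so the 4 shifted starts gave ratios within 0.63 of each other. These 4 members were the largest overlapping set among the lower ones. The other lower sets held 2 members each. The end of sR15 equals the start of sR27, of rRNA class, over fewer than 16 bases. sR27 was higher under low-Pi, with a log2 ratio of 0.30.

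Of the 6 lower members with the smallest ratios, 4 carry a class and are shown with first and last base in capitals.
sR120: AgaggaaactctggtggaggctcG
sR167: TgaaaaggactttgaaaagagagT
sR52: GttcagccggaggtagggtccagT
sR65: CagcgacggaccgggcccaagtcC
sR121, without a class, had 0.267, 0.397 and 0.133 RPM in low-Pi and 4.02, 5.31 and 10.3 RPM in control roots, 24.7-fold less. sR120, of rRNA class, had 0.267, 0.284 and 0.398 RPM in low-Pi and 7.43, 4.33 and 8.30 RPM in control roots, 21.1-fold less. sR167, of protein-coding class alone, was 19.6-fold less and rested on 7 reads in the 3 low-Pi libraries and 81 in control. sR81, without a class, was 13.3-fold less and sR52, of rRNA class, 9.15-fold less, with 3.27, 1.87 and 5.04 RPM in low-Pi and 27.4, 38.3 and 27.4 RPM in control roots. sR65 was 7.65-fold less, and none of the 6 overlapped between groups.

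At the other end, the 6 largest ratios among members of at least 1 RPM in low-Pi came from sequences with at most 6 reads in the control libraries together. Of these, 2 carry a class.
sR144: AgtcggtccggccgatgtgccgtG
sR185: CggagtgtgccctcggccatggtC
sR195, without a class, was 39.7-fold higher by mean RPM, on 56 low-Pi reads and 1 control read over the 3 libraries. Pooled over libraries, its reads per kept read gave a ratio of 31.7 with an exact 95% counting interval of 5.46 to 1274. sR196 was 24.3-fold higher by mean RPM on 47 and 1 reads, with a pooled ratio of 26.6 (4.55 to 1073). sR186 was 23.1-fold higher by mean RPM on 78 and 2 reads, with a pooled ratio of 22.1 (5.91 to 186). These intervals are so wide that the order of the 3 cannot be read. sR195 and sR186 each differ from sR2, of rRNA class, by 1 substitution. Their reads averaged 0.0453 and 0.0642% of those of sR2 in low-Pi and 0.0111 and 0.0264% in control libraries. sR196 equals a longer and more abundant sequence of the table with 1 inner base left out. Whether these 3 are RNAs of their own was not tested. sR144, of rRNA class, had 6.80, 4.37 and 2.79 RPM in low-Pi and 0.350, 0 and 0.268 RPM in control roots, 22.6-fold higher on 221 and 6 reads. sR177, without a class, was 17.5-fold higher on 107 and 4 reads. sR185, of protein-coding class, had 28, 32 and 28 low-Pi reads and 0 control reads, which put it at least 16.6-fold higher against a floor of 3 reads over the control group (0.111 RPM). The other member with 0 control reads was sR191, of non-translating class, at least 12.6-fold higher.

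Members overlapped each other in part. Joined where the end of 1 equalled the start of another over at least 16 bases, the 196 fell into 150 groups, of which 128 held a single member and 22 held 68 members together. Within each of the 22 groups all members had the same direction, higher in 19 groups and lower in 3. Of all members 87.2% were higher, and 11 of the 22 groups were pairs. Overlapping fragments that did not change could not be in the table, so this agreement is a description. Ratios still differed within groups, by a median log2 range of 1.0 and by up to 2.61.

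The group with most members, 7, was led by sR2 and held the widest range. The 5 members with a class are shown with the 21 bases shared by the whole stretch in capitals.
sR79: tccCCTCCTTTTGGCTCCAAGGCC
sR50: ccCCTCCTTTTGGCTCCAAGGCCc
sR2: cCCTCCTTTTGGCTCCAAGGCCcg
sR122: cCCTCCTTTTGGCTCCAAGGCCca
sR6: CCTCCTTTTGGCTCCAAGGCCcgg
Moving the 24-base window by 1 base from sR2 to sR6 took the log2 ratio to 1.17 in sR6, against 3.23 in sR2. sR50 and sR79, which start 1 and 2 bases before sR2, had log2 ratios of 2.27 and 1.10. sR122 differs from sR2 by G24A, counted from 1 at the 5′ end with the base of sR2 first, and had a log2 ratio of 3.71. The other 2 groups with most members, of 6 each, were led by sR38 (log2 ratios from 0.94 to 3.26, none with a class) and sR82 (0.69 to 3.29, 1 of the 6 with a class).

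The position of the 3′ end went with the ratio in the sR2 stretch. Across lengths of 18 to 25 nt, the 8 fragments of rRNA class that end where sR2 ends had log2 ratios of 1.86 to 3.23. The 7 that end 1 base earlier, of 19 to 25 nt, had 1.24 to 2.85, and the 7 that end 1 base further, also of 19 to 25 nt, had 0.66 to 1.31. At each of the 7 starts where the end of sR2 and the end 1 base further were both in the table, the fragment ending with sR2 had the higher ratio. The ratio of their reads within a library does not depend on how libraries are scaled. Reads of sR2 were 6.18, 6.01 and 5.83 times those of the 25-nt fragment with the same start and 1 further base in low-Pi libraries, and 1.38, 1.70 and 1.63 times in control libraries. From the start 1 base inside, the 23-nt fragment had 11.3, 10.9 and 10.9 times the reads of sR6 in low-Pi and 3.67, 3.88 and 3.47 times in control libraries. All 7 pairs had within-library ratios that did not overlap between groups. These pairs are overlapping forms of 1 stretch in the same libraries, so they are not 7 separate observations. The stretch was also picked after its values were seen.

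**Figure D4:**
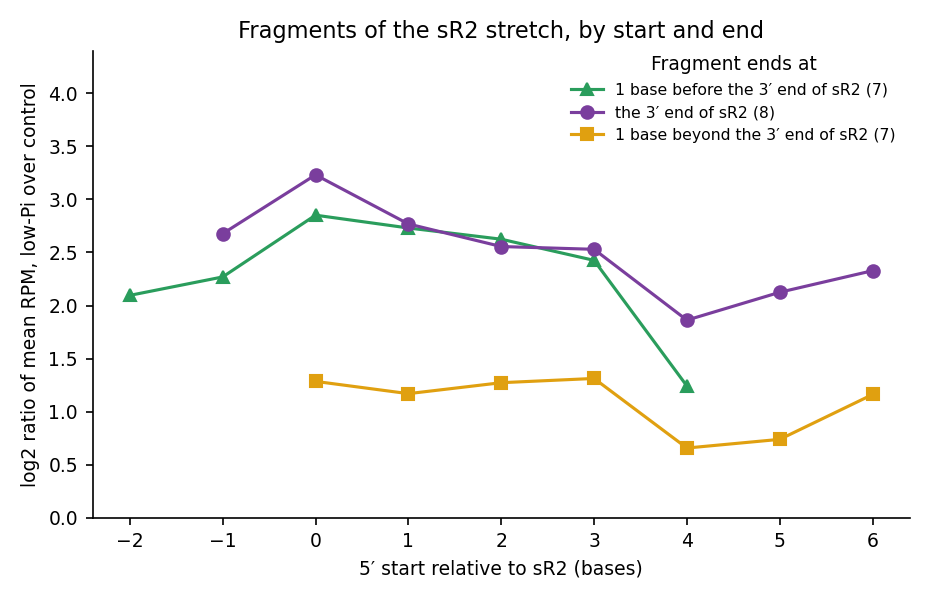
The log2 ratio of mean RPM (low-Pi over control) is plotted against the 5′ start relative to sR2 in bases, with 1 line for fragments ending 1 base before, at, and 1 base beyond the 3′ end of sR2. The line for the end 1 base beyond stays at 0.66 to 1.31, under the line for the sR2 end at every shared start.

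The other most abundant members were compared with their neighbours in the same way. Reads of sR1 were 0.712, 0.754 and 0.685 times those of the 23-nt fragment that starts 1 base inside it in low-Pi, and 0.274, 0.317 and 0.323 times in control libraries. That 23-nt fragment averaged 3850 ± 460 RPM in low-Pi and 2759 ± 504 RPM in control roots, a log2 ratio of 0.48, while the 22-nt fragment 2 bases inside had 1.71. At its 3′ end, sR1 had 2.84, 3.29 and 2.69 times the reads of the 25-nt fragment with 1 further base in low-Pi and 1.41, 1.99 and 1.47 times in control libraries. Neither pair of sR1 overlapped between groups. For sR3, reads relative to the 25-nt fragment that starts 1 base before it were 0.950, 0.785 and 0.721 in low-Pi and 1.01, 0.692 and 0.950 in control libraries, which overlap. For sR5, shorter forms with the same start had log2 ratios of 0.99 at 23 nt, 1.21 at 22 nt, 1.27 at 21 nt, 2.51 at 20 nt, 2.60 at 19 nt and 1.86 at 18 nt, beside 1.08 for sR5 itself. Reads of sR5 were 1.98, 2.60 and 3.41 times those of the 20-nt form in low-Pi and 7.39, 6.74 and 6.32 times in control libraries, so these groups did not overlap, nor did those for the 19-nt and 18-nt forms. Relative to the 21, 22 and 23-nt forms the groups overlapped. sR4 had 32.5, 36.7 and 33.6 times the reads of its 25-nt form with 1 more 5′ base in low-Pi and 20.6, 16.8 and 16.3 times in control libraries.

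Most members were 1 of several lengths. A sequence of another length that contains a member, or is contained in it, was in the table for 156 of the 196 (79.6%), namely for 138 of 171 higher and 18 of 25 lower members. Of all members, 126 shared a 3′ end with such a variant, 95 shared a 5′ end and 68 had both kinds. The variant was more abundant than the member for 123 of them. Among 845 pairs of member and variant only 2 went in opposite directions. Variants were sought only among the selected sequences of the table, 86.7% of which were higher. Length forms that did not change could not appear, so this agreement is a description. The 2 opposite pairs were sR4, whose 25-nt form had a log2 ratio of -0.15, and sR16, of rRNA class, with 0.75 beside -1.70 for its 22-nt form. Pairs 1 base apart differed by a median of 0.52 in log2 ratio whether the base was at the 5′ end (131 pairs) or the 3′ end (90 pairs).

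Many members without a class were 1 base away from an abundant sequence. Among the 24-nt members alone, 22 differed by exactly 1 substitution from a member with at least 10 times their reads, 13 of them from sR2, 5 from sR1, 2 from sR3 and 1 each from sR6 and sR20. Allowing parents of any length raised this to 43 members (21.9%), of which 33 had no class, 8 were of rRNA class, and all 43 had the direction of their parent. All of these parents were higher, as were 87.2% of all members, so the shared direction is a description. A further 7 members equalled a 25-nt table sequence of at least 10 times their reads with 1 inner base left out. Substitution and deletion forms together covered 50 members (25.5%) and 40 of the 81 without a class (49.4%). The table admits only sequences that changed, so how many other variants exist was not analysed here.

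The parent with most variants was the most abundant sequence of the whole table, of 25 nt and rRNA class. Its last 24 bases, the part that 21 members match with 1 substitution, are in capitals.
25-nt parent: aCCGACCTACTCGACCCTTCGGCCG
It had 59740, 70985 and 66047 RPM in low-Pi and 18882, 17564 and 11097 RPM in control roots, 4.14-fold higher. Its 21 variants included sR8, sR12, sR13 and sR14, which carry G24A, C16T, C5T and C1T relative to the capitals, counted from 1 at the 5′ end of the capitals with the parent's base first. They were spread over 16 positions, 3 at the first, 3 at the last and 15 between, and 12 were transitions and 9 transversions. The variants' log2 ratios of 1.13 to 2.13 lay within 1 of the parent's 2.05 in all 21. The quartiles of the log2 ratio over all members were 1.04 and 2.47, so many members without this parent lay as close.

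Variant reads were small fractions of parent reads. Per variant of the 25-nt parent, the mean percent of parent reads ran from 0.00607 to 0.473 in low-Pi and from 0.0116 to 0.667 in control roots, and it was lower under low-Pi for 20 of the 21. For 12 of them the 6 libraries did not overlap, and all 12 were lower. All 21 percentages divide by the same parent reads in the same 6 libraries, so they are not 21 separate observations. For the 13 variants of sR2 the percent ran from 0.0453 to 0.333 in low-Pi and from 0.0111 to 0.359 in control roots, with 9 of 13 overlapping between groups. Their log2 ratios, 2.27 to 5.31, had a median of 3.32 beside 3.23 for sR2, and 11 of 13 lay within 1 of it. The 5 variants of sR1 were sR148 (G2T), sR150 (G5A), sR172 (A24C), sR187 (A14G) and sR194 (G5C), and their log2 ratios of 1.29 to 3.82 had a median of 2.31 beside 1.70 for sR1. The largest of these, sR194, was 14.1-fold higher by mean RPM but had only 3 control reads. Pooled over libraries, its reads per kept read gave a ratio of 11.1 with an exact 95% counting interval of 3.63 to 55.5.

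**Figure D5:**
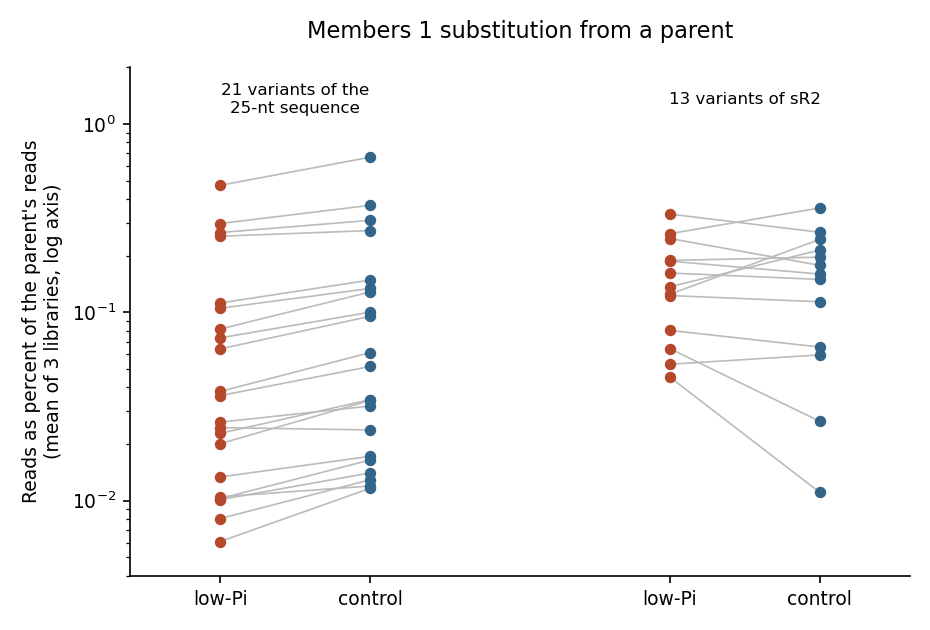
Reads of each substitution variant are shown as a percent of its parent's reads (mean of 3 libraries, log axis), low-Pi left of control, with a line joining the 2 values of a variant. The 21 variants of the 25-nt parent are mostly lower in low-Pi than in control libraries, and the 13 variants of sR2 run both ways.

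The ends of the members were uneven in base composition. The first base was C in 81 of the 171 higher members (47.4%), A in 34 (19.9%), T in 32 (18.7%) and G in 24 (14.0%). Among the 25 lower members it was A in 9, C in 7, G in 5 and T in 4. Other lengths of the table began with C in 37.2% and A in 25.6%, and the 300 root sequences of 24 nt with a miRBase match began with C in 21.0% and A in 26.7%. By reads, higher members began with C in 53.4%, T in 39.3% and A in 3.92% of low-Pi reads, and with C in 40.6%, T in 50.8% and A in 4.60% of control reads. An adenine start was thus less common among the higher members than at other lengths, and rarer still by reads. The 8 most abundant members, none of which starts with A, made up 72.2% of the 24-nt reads in low-Pi roots. Over higher and lower members together, the rRNA class began with A in 29.7% and members without a class in 13.6%. Binding by ARGONAUTE proteins was not tested.

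The last base was G in 98 of 171 higher members (57.3%) and in 4 of 25 lower ones (16.0%), beside 48.8% at other lengths and 27.0% of the 24-nt miRBase sequences. Median GC content was 66.7% in higher and 54.2% in lower members, beside 61.1% at other lengths and 54.2% in the 24-nt miRBase sequences. Variants of 1 parent share nearly all their bases, and members without a class, 40 of which were such variants, began with C in 60.5%.

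No member overlapped the reverse strand of any sequence in the table over 16 bases. Over 12 bases 3 members did. The table holds only sequences that changed, so a partner strand that did not pass the selection could not be found. None of the 196 was in either miRBase table, none lay within 2 substitutions of a 24-nt sequence there, and none shared 16 bases in a row with any miRBase-matched sequence of root or shoot.

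The shoot table outside miRBase, of 199 sequences, held 1 of the members, sR193, which has no class in the annotation table of either organ. The study's text assigns a shared sequence of this length to the RNA of a MYB transcription factor, and that assignment was not checked here. In roots it had 1.20, 0.852 and 1.59 RPM in low-Pi and 0.262, 0 and 0.134 RPM in control libraries. In shoots it had 3.00, 4.27 and 3.50 RPM in low-Pi and 0.895, 0.735 and 1.03 RPM in control libraries. It was higher under low-Pi in both organs, 9.20-fold on 57 and 4 reads in root and 4.05-fold in shoot. Both tables were chosen for a difference, so sharing a direction is no independent support.

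Including sR193, 13 members shared 16 bases or more with a shoot sequence, 6 with the same direction and 7 with the opposite one. These matches fell on only 7 shoot sequences, 4 with the same direction and 3 with the opposite one, and 4 of the 7 opposite members overlapped a single 18-nt shoot sequence. sR124, of tRNA class and higher in low-Pi roots, overlapped a 20-nt shoot sequence at 0.888, 1.31 and 1.70 RPM in low-Pi and 6.49, 7.51 and 7.80 RPM in control shoots. sR34 and sR46, lower in low-Pi roots, overlapped a 21-nt shoot sequence that averaged 507 ± 75.9 RPM in low-Pi and 283 ± 21.5 RPM in control shoots. sR52, lower in low-Pi roots, overlapped a 22-nt shoot sequence at 13.5 ± 1.33 RPM in low-Pi and 32.3 ± 1.59 RPM in control shoots. Root and shoot fragments of 1 stretch thus had opposite directions in some cases and the same in others, and the difference between organs was not tested.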

How the data were processed

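Small RNA was size-selected on a gel and read as single reads from 12 barley libraries, of which the 6 root libraries are used for the ratios. Per the labels and methods, the authors trimmed adapters in CLC Genomics Workbench (version not given in the sources used here), retained lengths of 18 to 25 nt and merged identical reads into 1 entry. The deposited counts are reads of 1 distinct sequence per library, and the deposited RPM values are counts per 1000000 kept reads. Sequences that matched miRBase (release 22) perfectly on the same strand are in tables of their own. The tables outside miRBase hold only sequences that passed a Bonferroni threshold on these libraries. Deposited p-values and fold changes were not used, and 24 columns that repeat counts were left out.

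Library totals were recovered as count over RPM, and ratios are of mean RPM, low-Pi over control. A group with 0 reads was set at 3 reads over its 3 libraries. No test was made on members. Sequence comparisons were tested on simulated data. The members and lists were chosen with earlier results of these data known. Named members are the 8 with the highest mean RPM, the 6 largest and 6 smallest ratios among those of at least 1 RPM in the higher group, the leaders and ranges of the 3 overlap groups with most members, the variants of the most abundant parent and those in a shoot table. The others were named after their values were seen. Among them are the lower overlap group, the sR2 stretch and its ends, and the variants of the 25-nt parent. Single members among them are sR9, sR16, sR27, sR29, sR103, sR110, sR124 and sR191. Sequences were read from the deposited tables, and the cDNA classes from the study's annotation. Scaling alternatives used edgeR 4.0.16 and DESeq2 1.42.0 factors.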

Additional observations from a re-analysis of the deposited data

How the results depend on the processing

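Counts of 171 higher and 25 lower members were found under each scaling tried and with any 1 library left out (195 to 196 without overlap), and of 156 and 25 among members with a mean of at least 1 RPM. Members whose groups do not overlap keep their direction without 1 library. The scalings moved the median log2 ratio up by 0.60 to 0.83, while no lower member lay above -1.75. These counts could therefore hardly change and are no check of the directions. The median log2 ratio of 1.73 was 2.33 with TMM factors, 2.37 with DESeq2 factors and 2.39 with totals of the miRBase table, 2.56 with no scaling, 1.50 as a difference of mean log2(RPM + 0.5), and 1.69 to 1.79 without 1 library. Without the most abundant member of each direction, higher members took 1.15% of low-Pi and 0.354% of control reads, and lower members 0.0112% and 0.0573%. A first base of C was found in 44.9% of members and in 53.3% by low-Pi reads. Members 1 substitution from a parent numbered 35 with any more abundant parent, 41 with up to 2 substitutions and 43 with parents of any length, an alternative chosen after seeing the data. Antisense overlap with the selected sequences of the table was found for 3 members at 12 bases or more and for 0 at 16 or more. No paired analysis was possible because the low-Pi and control libraries share no replicate number and no result comes from a test. Ratios of the 2 rarest members, sR195 and sR196, rest on 1 control read each, and no genome was used to place the fragments.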
